A study of Mus musculus with 10 samples.

Results

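The collagen genes were described in 3 regions of the mouse heart. These were the pieces named RV (right ventricle) and LV (left ventricle) in the labels, and the septum between the ventricles. A gene was taken as a member when the RefSeq entry named by its array probe carried a symbol made of Col, a number, the letter a and a number. This gave 44 genes on 67 probes, out of 22911 named genes on 56605 probes in the whole series. They comprised 11 fibrillar chains, 8 basement membrane chains and 25 chains of other types. Total RNA came from hearts of C57BL/6N mice that were cut into the regions and frozen, with no treatment or altered allele named for any region, and the age of the mice was not given in the sources used here. There were 4 RV, 3 LV and 3 septum samples, and each was hybridised to 1 single-colour array. The series' own design note says that separate animals were used for the experiments. It does not say which pieces came from the same heart, so the p-values measure the spread between these samples.

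Collagens are the main structural proteins of the extracellular matrix. A collagen molecule is a trimer of α chains, and each α chain has a gene of its own. Fibrillar collagens, chiefly types I and III in the heart, form the interstitial fibres that hold muscle bundles together and are made mostly by cardiac fibroblasts. Type IV collagens form the network of the basement membrane that surrounds cardiomyocytes and lies under endothelium, and types XV and XVIII are associated with basement membranes. Members of other types form short-chain networks (types VIII and X), beaded microfilaments (type VI) or associations with the surface of fibrils (types IX, XII, XIV, XVI, XX and XXII), or span the cell membrane (types XIII, XVII, XXIII and XXV).

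A level here is the log2 signal of a probe after subtraction of the 75th percentile of its array, so that 0 marks a probe at that percentile. Levels were compared between samples for the same probe and not between probes. A member was tested when all arrays of 1 region or more showed its probe well above background, and 32 of the 44 members were (9 fibrillar, 6 basement membrane and 17 other). For genes with several probes the brightest probe that could be tested is given. Differences with an adjusted p below 0.05 (limma, Benjamini-Hochberg over the 30234 probes tested) are written as called. In bulk tissue of this kind, a lower share of a cell type and less RNA per cell cannot be told apart.

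The arrays lay on 2 slides. Slide 1 held replicates 1 and 2 of each region, and slide 2 held RV3, RV4, LV3 and Septum3. All 12 cardiomyocyte markers were above background on every array, with a summed level between 12.2 and 12.5 on the log2 scale. Arrays of the same region correlated between 0.985 and 0.996 over the tested probes. Between 27 and 38 collagen genes were above background on an array. Because the RV arrays of the 2 slides stood apart in many collagen genes, differences are given below for all arrays, with the slide as a block and within each slide.

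The RV had higher levels of several collagen chains than the LV. Col4a4 and Col4a6, chains of basement membrane networks with a restricted distribution, were 1.76-fold and 5.43-fold higher in the RV. Col5a2, a chain of the type V collagen that takes part in fibril assembly, was 1.70-fold higher. These sizes depended on the background handling. With the normexp background correction the log2 differences of Col4a4, Col4a6 and Col5a2 were 0.49, 1.73 and 0.42, against 0.82, 2.44 and 0.77. Col5a2 was then not called (limma, adjusted p = 0.0602). Col8a2, a short-chain collagen known from the basement membrane of the corneal endothelium, was not well above background on any LV array. Its RV mean was 2.88-fold above the dimmest probes that were above background there. No collagen gene was called lower in the RV. The 4 calls among 32 members stand against 2.31% of all tested probes called higher in the RV than in the LV and 1.55% called lower. Of the calls over all probes, 59.7% were higher in the RV, and this share was 75.9% when the arrays were scaled on the probes above background on all arrays. In 26 of the 32 members the RV mean was above the LV mean, and the median difference was 0.40 (log2), against -0.04 over all tested probes. The median was 0.77 in the 9 fibrillar, 0.45 in the 6 basement membrane and 0.34 in the 17 other members. The F test over the 3 regions together called Col4a4, Col4a6 and Col8a2, that is 3 of 32 members against 2.78% of all probes. Col8a2, counted among the 4 and among the 3, passed the filter through the RV and septum. A low LV value was thus built into its selection.

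**Figure D1:**
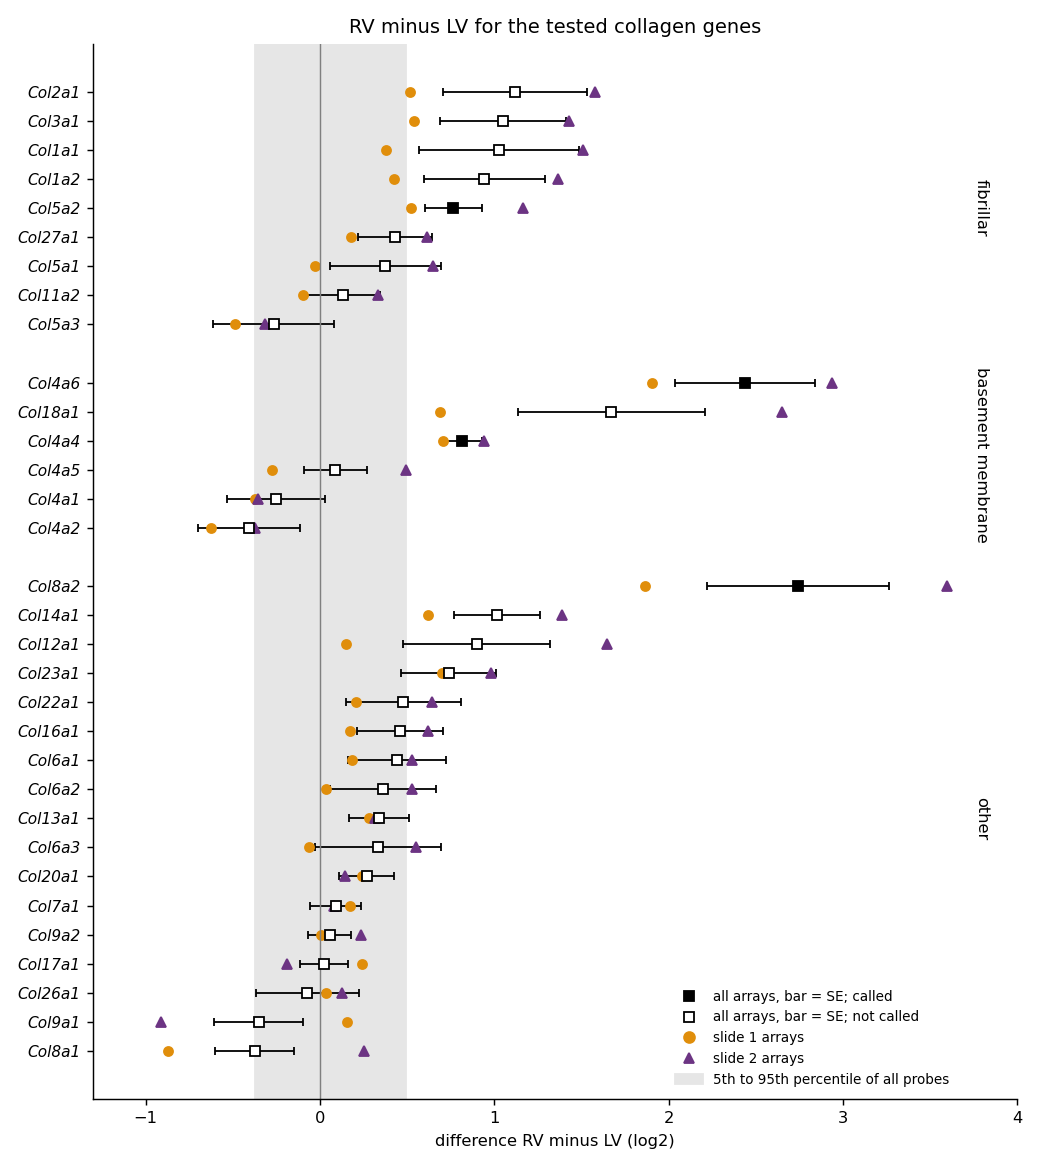
Difference between the RV and LV means (log2, x axis) for the 32 tested collagen genes, grouped by type. Squares are the estimate over all arrays with its standard error and are filled where called, circles and triangles are the differences within slide 1 and slide 2, and the grey band spans the 5th to 95th percentile of all tested probes (-0.37 to 0.50). The filled squares are Col5a2, Col4a6, Col4a4 and Col8a2, and most triangles lie to the right of the circles.

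The number of members called depended on how the slides were handled. With the slide as a block, 10 members were called higher in the RV (7.24% of all probes were) and 1, Col4a2, was called lower (10.4% of all probes were). The 10 were Col1a2, Col2a1, Col3a1, Col5a2, Col4a4, Col4a6, Col18a1, Col8a2, Col14a1 and Col23a1. With the replicate number as a fixed block, in which RV4 has no partner and adds nothing to the differences, 5 members were called higher, Col4a4, Col4a6, Col5a2, Col8a2 and Col23a1 (6.23% of all probes), and 3 lower, Col4a1, Col4a2 and Col5a3 (8.69% of all probes). With the number as a random block, 10 members were called higher, the same as with the slide as a block (8.15% of all probes), and none lower. In 6 members every RV array lay above every LV array, against 8.1% of all probes, and in none did every RV array lie below (11% of all probes). These 6 were Col5a2, Col4a4, Col4a6, Col18a1, Col8a2 and Col14a1. Where Col8a2 or Col23a1 is counted here, the filter favoured a gap, since neither passed it through the LV. Without a block, the number called fell to 1 when LV1 or LV2 was left out and to 2 when LV3 or RV4 was left out.

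**Figure D2:**
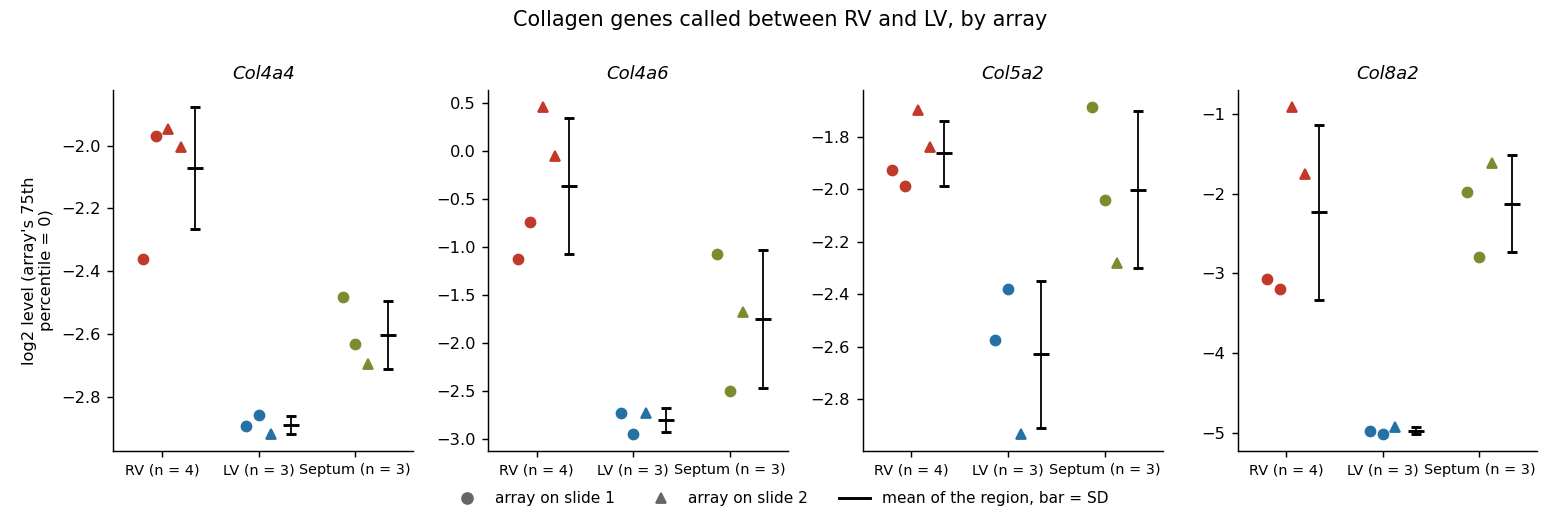
Level of the 4 collagen genes called between RV and LV on each array (y axis, log2, 0 at the array's 75th percentile; each panel has its own scale). Circles are arrays of slide 1, triangles arrays of slide 2, and the black bar is the mean with its SD. The RV and LV arrays do not overlap in any panel, and the septum arrays lie between them for Col4a4 and overlap the RV arrays for Col4a6, Col5a2 and Col8a2.

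Among the fibrillar collagens, Col5a2 was the called member. Its level was -1.93, -1.99, -1.70 and -1.84 on RV1 to RV4, and -2.57, -2.38 and -2.93 on LV1 to LV3. All RV arrays were above all LV arrays, and the difference was 0.77 ± 0.17 (SE), with an adjusted p of 0.0366. The call was lost when any 1 of the RV or LV arrays or Septum2 was left out, that is in 8 of 10 such fits, where the difference ranged from 0.61 to 0.89. Within slide 1 the difference was 0.52 (adjusted p = 0.112) and within slide 2, with a lone LV array, it was 1.17.

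Col1a1 and Col1a2 encode the chains of type I collagen, the main fibre of heart interstitium. Col1a1 was at 2.03, 2.31, 3.89 and 3.73 on RV1 to RV4, at 1.50, 2.09 and 2.30 on LV1 to LV3 and at 2.50, 2.33 and 2.996 on Septum1 to Septum3. The RV arrays of slide 2 stood above every other array, and those of slide 1 lay within the range of the LV arrays or just above it. The RV mean was 2.99 ± 0.96 (SD, n = 4) and the LV mean 1.96 ± 0.42 (SD, n = 3), a difference of 1.03 ± 0.46 (SE) that was not called (adjusted p = 0.253). Blocking on the slide gave 0.86 (adjusted p = 0.0547), and a second Col1a1 probe gave 1.02, and 0.87 with that block (adjusted p = 0.0417).

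Col1a2 followed the same arrays, at 4.72, 4.99, 6.20 and 5.97 on RV1 to RV4, 4.18, 4.68 and 4.72 on LV1 to LV3 and 4.78, 4.69 and 5.17 on Septum1 to Septum3. Its RV minus LV difference was 0.94 ± 0.35 (SE, adjusted p = 0.169). Blocking on the slide gave 0.82 (adjusted p = 0.0342), and a random block of the number 0.85 (adjusted p = 0.0385).

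Col3a1 encodes the chain of type III collagen, the finer fibre of the interstitium. Its level was 2.86, 3.21, 4.26 and 4.36 on RV1 to RV4, 2.17, 2.82 and 2.88 on LV1 to LV3 and 2.76, 2.72 and 3.03 on Septum1 to Septum3. RV1 lay inside the LV range and the other RV arrays above it. The difference was 1.05 ± 0.36 (SE, adjusted p = 0.146), and 0.93 with the slide as a block (adjusted p = 0.0326).

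Col2a1, the chain of the type II collagen of cartilage, was at -1.43, -1.13, 0.17 and 0.23 on RV1 to RV4 and at -2.10, -1.50 and -1.38 on LV1 to LV3. RV1 overlapped the LV arrays. The difference was 1.12 ± 0.41 (SE, adjusted p = 0.171), and 0.97 with the slide as a block (adjusted p = 0.0307).

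The remaining fibrillar members differed less. Col5a1, the partner of Col5a2 in type V collagen, was at 1.12, 1.48, 2.47 and 2.28 on RV1 to RV4, at 1.17, 1.49 and 1.72 on LV1 to LV3 and at 1.45, 1.66 and 2.07 on Septum1 to Septum3. Its RV minus LV difference was 0.38 ± 0.32 (SE, adjusted p = 0.575), with the RV and LV arrays overlapping. Col27a1 and Col11a2 differed by 0.43 and 0.13, and Col5a3 by -0.26. Col11a1 and Col24a1 were not tested, since Col11a1 was above background on 3 of 10 arrays and Col24a1 on none.

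**Figure D3:**
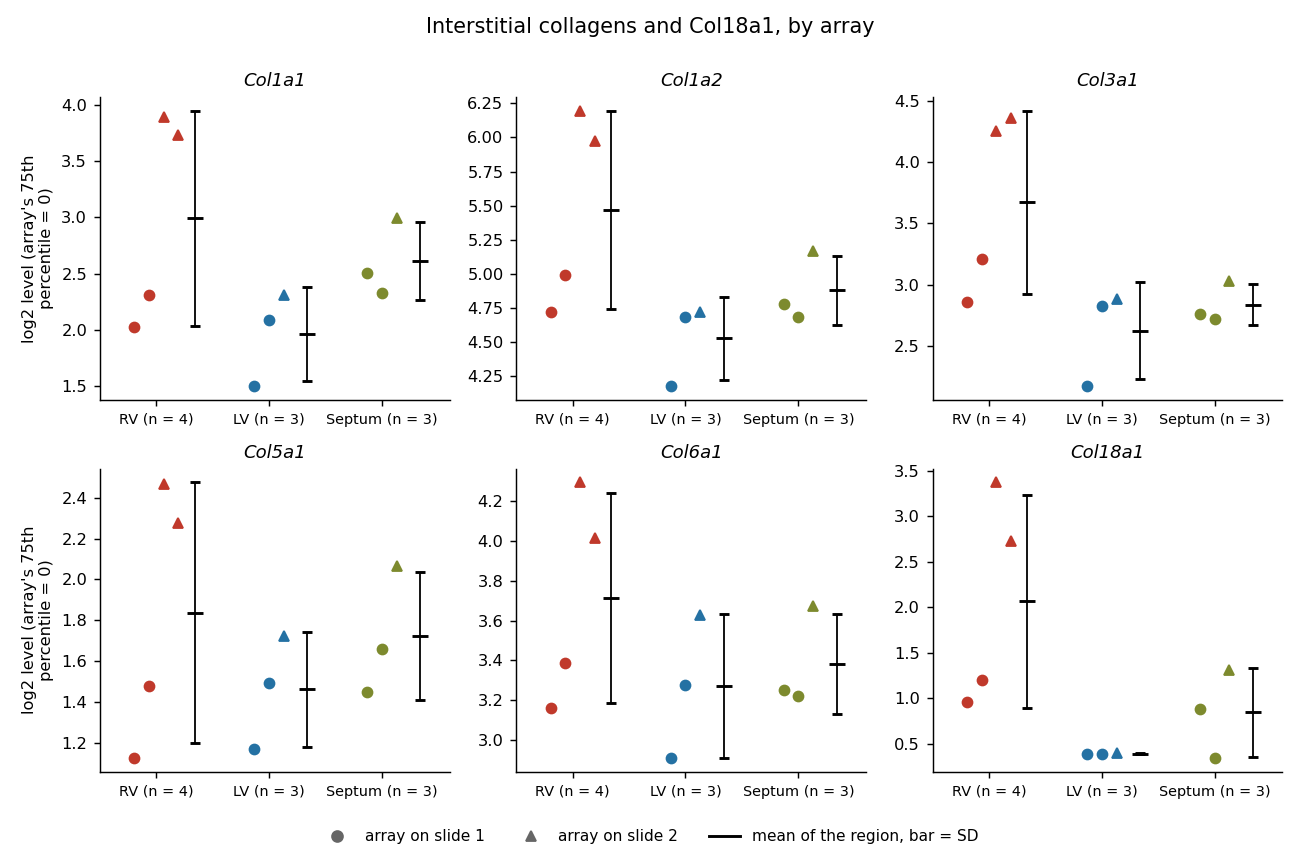
Level of 5 interstitial collagen genes and Col18a1 on each array (y axis, log2, 0 at the array's 75th percentile; each panel has its own scale), by region. Circles are arrays of slide 1, triangles arrays of slide 2, and the black bar is the mean with its SD. The RV arrays of slide 2 are the highest in all 6 panels.

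The 6 type IV chains are encoded in pairs of neighbouring genes that are transcribed away from each other, Col4a1 with Col4a2, Col4a3 with Col4a4 and Col4a5 with Col4a6. Windows from 250 bases before to 50 bases after the transcript start (RefSeq, GRCm38.p6) are shown for the pairs whose chains could both be tested, because the RV minus LV differences of the chains were close to each other in one pair and far apart in the other. In the windows of Col4a1 (chr8:11312777-11313076, minus strand) and Col4a2 (chr8:11312555-11312854, plus strand), capitals mark the 78 bases that both windows hold.
Col4a1: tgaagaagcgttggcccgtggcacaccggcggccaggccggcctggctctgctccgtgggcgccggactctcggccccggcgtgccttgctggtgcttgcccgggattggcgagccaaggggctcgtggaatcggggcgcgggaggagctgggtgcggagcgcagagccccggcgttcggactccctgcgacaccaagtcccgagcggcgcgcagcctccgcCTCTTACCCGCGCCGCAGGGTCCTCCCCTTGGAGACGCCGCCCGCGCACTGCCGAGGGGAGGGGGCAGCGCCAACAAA
Col4a2: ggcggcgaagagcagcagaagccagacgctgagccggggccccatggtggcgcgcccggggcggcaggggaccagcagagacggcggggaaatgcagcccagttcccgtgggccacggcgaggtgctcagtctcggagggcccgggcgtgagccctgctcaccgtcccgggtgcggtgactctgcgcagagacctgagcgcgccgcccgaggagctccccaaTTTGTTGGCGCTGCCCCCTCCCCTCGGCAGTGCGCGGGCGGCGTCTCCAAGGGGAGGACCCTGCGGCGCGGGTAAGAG
The windows of Col4a6 (chrX:141474027-141474326, minus strand) and Col4a5 (chrX:141475169-141475468, plus strand) share no base, and their starts lie 1343 bases apart. Capitals mark CCAAT on either strand.
Col4a6: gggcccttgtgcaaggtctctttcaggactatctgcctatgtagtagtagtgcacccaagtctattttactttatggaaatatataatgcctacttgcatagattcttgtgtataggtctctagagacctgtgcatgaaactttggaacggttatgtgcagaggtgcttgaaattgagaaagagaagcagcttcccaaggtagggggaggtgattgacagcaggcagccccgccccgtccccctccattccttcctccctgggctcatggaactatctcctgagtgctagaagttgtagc
Col4a5: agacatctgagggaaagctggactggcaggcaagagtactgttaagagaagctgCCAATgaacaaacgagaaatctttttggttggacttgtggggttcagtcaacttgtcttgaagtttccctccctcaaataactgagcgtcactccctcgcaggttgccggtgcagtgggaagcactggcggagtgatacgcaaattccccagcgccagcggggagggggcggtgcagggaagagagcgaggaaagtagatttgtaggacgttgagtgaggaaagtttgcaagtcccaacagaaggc

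All motifs were searched on both strands. CCAAT was found once in each of the Col4a1, Col4a2 and Col4a5 windows and not in the Col4a6 window, and 37.4% of all 32851 promoter windows hold it. It was found in 13 of the 38 windows of the 35 members with an entry (34.2%). TATAAA was in none of the 4 windows shown, in 5 of the 38 member windows (13.2%) and in 13.6% of all windows. GGGCGG was in all 4 windows shown, in 23 of the 38 (60.5%) and in 35.7% of all windows. These matches of letters describe the windows and name no bound factor.

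Col4a1 and Col4a2 form the common basement membrane trimer of heart muscle and vessels. Col4a1 was at 2.71, 2.99, 3.64 and 3.45 on RV1 to RV4, at 2.96, 3.48 and 3.90 on LV1 to LV3 and at 3.06, 3.40 and 3.78 on Septum1 to Septum3. Col4a2 was at 2.42, 2.70, 3.45 and 3.29, at 3.02, 3.36 and 3.74, and at 2.80, 3.23 and 3.63 on the same arrays. On each slide the RV arrays lay below the LV arrays of the same slide for Col4a2, and over both slides the ranges overlapped. The RV minus LV difference was -0.25 ± 0.28 (SE, adjusted p = 0.685) for Col4a1 and -0.41 ± 0.29 (SE, adjusted p = 0.499) for Col4a2. Blocked by slide, the Col4a2 difference was -0.52 (adjusted p = 0.0332) and the Col4a1 difference -0.36 (adjusted p = 0.116). With the replicate number as a fixed block they were -0.51 (adjusted p = 0.0184) and -0.34 (adjusted p = 0.0354), and with it as a random block neither was called.

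Col4a6 is a chain of a type IV network known from smooth muscle and some epithelia. It was at -1.13, -0.74, 0.46 and -0.05 on RV1 to RV4, at -2.73, -2.96 and -2.73 on LV1 to LV3 and at -1.08, -2.50 and -1.68 on Septum1 to Septum3. The LV arrays were the lowest and close together, and the septum arrays lay between the LV and RV arrays, with Septum1 just above RV1. The RV minus LV difference was 2.44 ± 0.40 (SE, adjusted p = 0.0136). It was 1.91 within slide 1 (adjusted p = 0.0935) and 2.94 within slide 2, with a lone LV array. The call was lost without LV1 or without LV2.

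Its neighbour Col4a5 was at 0.27, 0.45, 1.09 and 0.90 on RV1 to RV4, at 0.63, 0.64 and 0.50 on LV1 to LV3 and at 0.64, 0.64 and 0.84 on Septum1 to Septum3. The LV values lay between those of the RV arrays of slide 1 and slide 2. The RV minus LV difference was 0.09 ± 0.18 (SE, adjusted p = 0.839), and 0.34 at a second probe (adjusted p = 0.568).

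Col4a4, a chain of the network of the glomerular basement membrane, was at -2.36, -1.97, -1.95 and -2.01 on RV1 to RV4, at -2.89, -2.86 and -2.92 on LV1 to LV3 and at -2.48, -2.63 and -2.69 on Septum1 to Septum3. No arrays of any pair of regions overlapped, and the order was RV, septum, LV. The RV minus LV difference was 0.82 ± 0.11 (SE, adjusted p = 0.0055). It was 0.71 within slide 1 (adjusted p = 0.0712) and 0.94 within slide 2, with a lone LV array. The call held in all 10 fits that left out an array. Its neighbour Col4a3 was above background on 5 of 10 arrays, 3 of them RV, and was not tested; its mean was -3.06 ± 0.39 (SD, n = 4) in the RV, -3.90 ± 0.32 (SD, n = 3) in the LV and -3.49 ± 0.17 (SD, n = 3) in the septum.

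Col18a1, whose product gives rise to endostatin, had the widest gap between slides. It was at 0.96, 1.20, 3.37 and 2.73 on RV1 to RV4, at 0.39, 0.38 and 0.40 on LV1 to LV3 and at 0.88, 0.34 and 1.31 on Septum1 to Septum3. All RV arrays were above all LV arrays, and the RV arrays of slide 2 were far above those of slide 1. The difference was 1.67 ± 0.54 (SE, adjusted p = 0.122), and 1.50 with the slide as a block (adjusted p = 0.0305). It was 0.69 within slide 1 and 2.65 within slide 2. Col15a1 was above background on 6 of 10 arrays and was not tested.

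Partner chains of the same collagen type were compared as the level of one chain minus that of the other on each array. The Col4a6 minus Col4a5 value lay between -1.41 and -0.63 in the RV and between -3.60 and -3.24 in the LV, a difference of 2.35. Its exact permutation p was 0.0286 (two-sided, 4 against 3 arrays), which is the smallest that the 35 assignments allow, and 0.133 after adjustment over the 14 comparisons made (7 pairs of chains, RV against LV and RV against septum). For Col8a2 and Col8a1 no RV against LV value or p is given, since Col8a2 was not well above background on any LV array. That comparison was still among the 14, so that the adjusted values given here are lower than they would be without it. The Col4a2 minus Col4a1 value lay between -0.29 and -0.16 in the RV and between -0.15 and 0.06 in the LV, with no overlap. It differed by -0.15 (exact p = 0.0571), Col1a1 minus Col1a2 by 0.08 (exact p = 0.629) and Col6a2 minus Col6a1 by -0.08 (exact p = 0.2), with adjusted values of 0.16, 0.677 and 0.467. The pairs were chosen after their values had been seen.

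**Figure D4:**
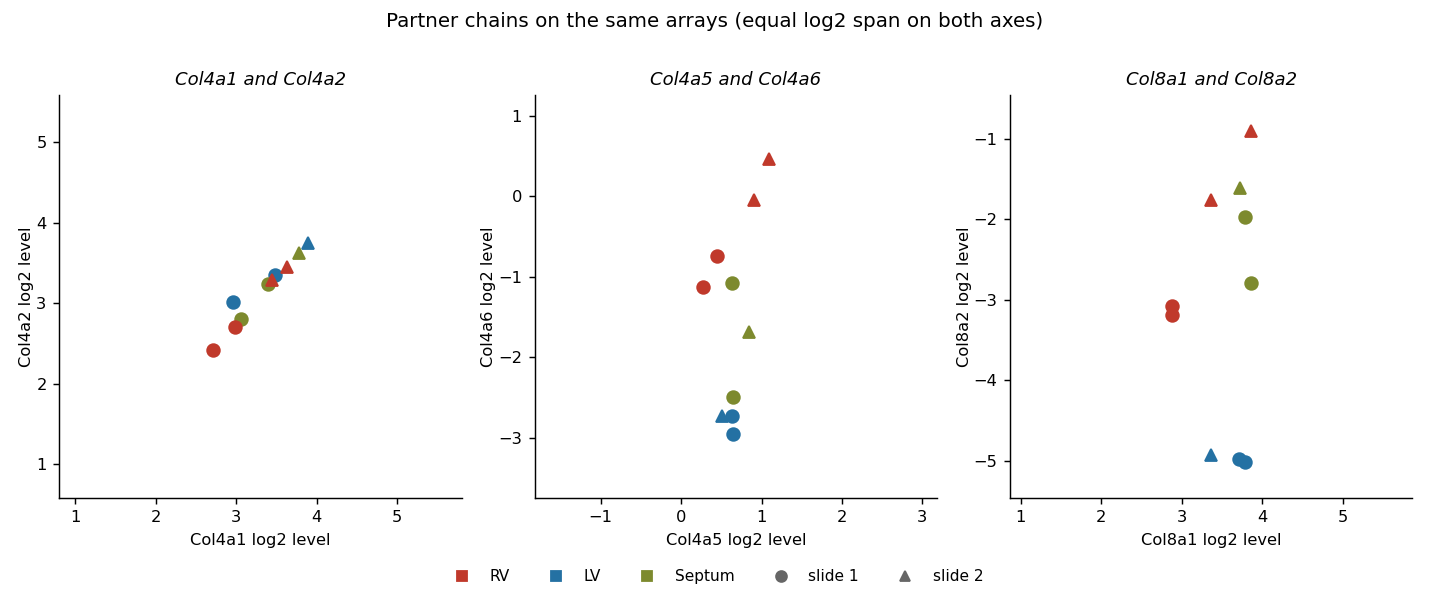
Level of one chain (x axis, log2) against that of its partner (y axis, log2) on each array, for Col4a1 and Col4a2, Col4a5 and Col4a6, and Col8a1 and Col8a2. Colours mark the regions, circles slide 1 and triangles slide 2, and both axes span the same number of log2 units. The Col4a1 and Col4a2 values lie along a diagonal, while Col4a6 and Col8a2 span a wider range than their partners; Col8a2 was not well above background on the LV arrays.

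Among the other types, Col8a2 stood out. It was at -3.07, -3.19, -0.90 and -1.76 on RV1 to RV4 and at -1.97, -2.79 and -1.61 on Septum1 to Septum3. On LV1 to LV3 it was at -4.98, -5.02 and -4.93 and not well above background on any of them, so that the LV level is an upper bound. Set against the dimmest probes above background on the LV arrays, the RV mean was at least 2.88-fold higher; the fitted difference was 2.74 ± 0.52 (SE, adjusted p = 0.0236). It was 1.86 within slide 1 (adjusted p = 0.0409) and 3.60 within slide 2, with a lone LV array. The call was lost when LV1, LV2, LV3 or RV4 was left out, and with the normexp background correction the difference was 1.02 (adjusted p = 0.0739). The probe was tested through the regions where it was above background, so a low LV value was built into its selection.

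Col8a1, its partner in type VIII collagen, was at 2.87, 2.88, 3.86 and 3.37 on RV1 to RV4, 3.71, 3.79 and 3.36 on LV1 to LV3 and 3.79, 3.85 and 3.73 on Septum1 to Septum3. On slide 1 the RV arrays were below the LV arrays by 0.87 (adjusted p = 0.019), and on slide 2 the RV mean was above the lone LV array by 0.26. The change of the difference between slides was 1.13 (limma, adjusted p = 0.278), and over all arrays Col8a1 was not called (-0.37, adjusted p = 0.413).

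Type VI collagen forms microfilaments around cells. Col6a1 was at 3.16, 3.38, 4.30 and 4.01 on RV1 to RV4, at 2.91, 3.27 and 3.63 on LV1 to LV3 and at 3.25, 3.22 and 3.67 on Septum1 to Septum3. Col6a3 was at 0.89, 1.19, 2.35 and 2.04, at 0.79, 1.42 and 1.64, and at 1.24, 1.59 and 1.92 on the same arrays. Both overlapped between the regions, and their RV minus LV differences were 0.44 ± 0.28 (SE, adjusted p = 0.435) and 0.33 ± 0.36 (SE, adjusted p = 0.674). A second Col6a3 probe gave 0.81, which was not called (adjusted p = 0.228), and 0.68 with the slide as a block (adjusted p = 0.0261). Col6a2 differed by 0.36, and Col6a4, Col6a5 and Col6a6 were not tested.

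Col14a1, an associate of fibril surfaces, was at -2.33, -1.79, -1.21 and -1.24 on RV1 to RV4, at -2.82, -2.55 and -2.61 on LV1 to LV3 and at -2.51, -2.81 and -2.65 on Septum1 to Septum3. Every RV array was above every array of the other regions. The RV minus LV difference was 1.02 ± 0.25 (SE, adjusted p = 0.0553), and 0.95 with the slide as a block (adjusted p = 0.0183). Col23a1, a membrane-spanning collagen, had RV values of -2.40, -2.43, -2.73 and -2.78 and LV values of -2.78, -3.47 and -3.74, with LV1 just above RV4. Its difference was 0.74 ± 0.27 (SE, adjusted p = 0.171), and 0.84 with the slide as a block (adjusted p = 0.0139). A second Col23a1 probe gave 0.51 (adjusted p = 0.214), and 0.56 with that block, which was not called (adjusted p = 0.0561). The first probe was above background on 4 of 4 RV, 1 of 3 LV and 2 of 3 septum arrays. It passed the filter through the RV alone, so a high RV value was built into its selection, also where it was called against the septum. The other 14 tested members of these types, Col6a1, Col6a3 and Col8a1 included, differed by between -0.37 and 0.90 and none was called.

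Against the septum, 1 member was called in the RV, and it was again Col4a4. The call of 1 in 32 members stands against 1.2% of all probes called higher in the RV than in the septum and 0.873% called lower. The RV minus septum difference of Col4a4 was 0.53 ± 0.11 (SE, adjusted p = 0.0434). The call held in 1 of 10 fits that left out an array, the one without RV1, and was lost in the others, with a difference of 0.49 to 0.63. With the replicate number as a fixed block it was 0.51 (adjusted p = 0.0617). In 17 of the 32 members the RV mean was the higher, and the median difference was 0.07, against -0.03 over all probes.

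With the slide as a block, 5 members were called higher in the RV than in the septum (4.03% of all probes) and none lower (4.72% of all probes). These were Col4a4, Col13a1, Col14a1, Col20a1 and Col23a1. Col14a1 differed by 1.01 ± 0.25 without the block (SE, adjusted p = 0.0812) and by 0.95 with it (adjusted p = 0.0282). Col23a1 differed by 0.94 (adjusted p = 0.141) and 1.03 (adjusted p = 0.0092), Col20a1 by 0.48 (adjusted p = 0.201) and 0.43 (adjusted p = 0.0239), and Col13a1 by 0.52 (adjusted p = 0.206) and 0.46 (adjusted p = 0.0418). With the replicate number as a fixed block Col20a1 and Col23a1 were called (3.36% of all probes), and with it as a random block Col4a6 was called besides the 5 (4.89% of all probes). In 4 members every RV array lay above every septum array, against 5.86% of all probes, and in none below (7.83%). They were Col4a4, Col14a1, Col20a1 and Col23a1. The fibrillar chains Col1a1, Col1a2 and Col3a1 differed between RV and septum by 0.38, 0.59 and 0.84 and were not called in this comparison.

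Between septum and LV no collagen gene was called, and neither was any of the tested probes (0%). At an unadjusted p below 0.05 there were 7 collagen genes (2.85% of all probes), all higher in the septum. Blocked by slide, none of the members was called (0.0463% of all probes), and with a random replicate block Col8a2 was (adjusted p = 0.0335, 0.172% of all probes). In 25 of the 32 members the septum mean was above the LV mean, with a median difference of 0.19, against -0.01 over all probes. In 9 members every septum array lay above every LV array (3.54% of all probes), and in none below (3.45%). Col8a2 and Col12a1, not above background on any LV array, are in this count and among the 7. The filter favoured such a gap in them.

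Col8a2 again differed the most between septum and LV, by 2.85 ± 0.56 (SE, adjusted p = 0.352) and by at least 3.11-fold against the background bound. Col12a1, a fibril-associated collagen of dense connective tissue, was at -2.44, -3.25 and -2.37 on Septum1 to Septum3 and at -4.29, -4.33 and -4.31 on LV1 to LV3, where it was not above background. On RV1 to RV4 it was at -3.91, -4.41, -2.66 and -2.66, so that RV2 was as low as the LV arrays and the RV arrays of slide 2 were near the septum arrays. The septum mean of the tested probe was at least 2.03-fold above the dimmest probes above background in the LV. The difference was not called (adjusted p = 0.97). This probe passed the filter through the septum alone, so a high septum value was built into its selection. A second Col12a1 probe, brighter but not testable, lay between -3.33 and -3.14 in the septum and between -3.60 and -2.96 in the LV, with no such gap. Col22a1, known from tissue junctions, was at -1.84, -2.65 and -1.36 in the septum, all above the LV range of -3.40 to -2.91 (difference 1.18, unadjusted p = 0.0081).

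The RV arrays of slide 2 had higher levels of most collagen genes than those of slide 1. Tested between the slides in a model with a term for each region on each slide, 18 of 32 members were higher in the RV arrays of slide 2 (8.94% of all probes were) and 4 were lower (14% of all probes were). Col18a1 differed by 1.97, Col8a2 by 1.80, Col1a1 by 1.64, Col12a1 by 1.50, Col2a1 by 1.48, Col3a1 by 1.28 and Col1a2 by 1.23. The 4 lower were Col7a1, Col9a1, Col17a1 and Col26a1. The median change from slide 1 to slide 2 over the 32 members was 0.79 in the RV, 0.18 in the LV and 0.37 in the septum. In the LV 1 member (Col26a1) and in the septum 1 member (Col7a1) changed between slides, both lower on slide 2, against 6.49% and 6.16% of all probes in either direction. These regions had a lone array on slide 2.

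The change of the RV minus LV difference between the slides was itself tested. It was called in 0 of 32 members (0.0728% of all probes), with 14 members at an unadjusted p below 0.05 (8.78% of all probes). For Col18a1 the difference grew by 1.96 ± 0.39 (SE, adjusted p = 0.254), and for Col1a1 by 1.13 ± 0.32 (SE, adjusted p = 0.429). The median RV minus LV difference of the members was 0.18 within slide 1 and 0.58 within slide 2, and of the fibrillar members 0.38 and 1.17. Slide, scan and replicate number run together in these arrays and cannot be told apart.

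The genes that build and read collagen were taken from lists of processing enzymes, of secreted proteases and cross-linking enzymes, and of receptors. Of 17 tested genes for modification and folding of the chains, 1 was called higher in the RV than in the LV and none lower, against 2.31% and 1.55% of all probes. It was Fkbp10, a prolyl isomerase of the collagen-folding machinery, at 3.23, 3.22, 3.45 and 3.24 on RV1 to RV4 and at 2.92, 2.96 and 2.84 on LV1 to LV3 (difference 0.38 ± 0.08, SE, adjusted p = 0.0377). Serpinh1, the collagen chaperone Hsp47, differed by 0.07 (adjusted p = 0.88) and P4ha1, a prolyl hydroxylase subunit, by -0.23 (adjusted p = 0.617). The median difference of this list was 0.07. After blocking on the slide, 5 of the 17 were called higher, P3h3, P3h4, Crtap, Ppib and Fkbp10, and P4ha2 was called lower, against 7.24% and 10.4% of all probes.

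Of 10 tested genes for secreted processing and cross-linking none was called, and the RV mean was the higher in all 10 (median difference 0.40). Lox, the lysyl oxidase that cross-links fibrils, was at -1.67, -1.39, -0.61 and -0.54 on RV1 to RV4 and at -2.04, -1.64 and -1.82 on LV1 to LV3, with the RV arrays of slide 2 the highest. Its difference was 0.78 ± 0.27 (SE, adjusted p = 0.152), and 0.69 with the slide as a block (adjusted p = 0.0395). Adamts2 and Pcolce2, which act on procollagen, were called with that block as well, so that 3 of 10 were called higher against 7.24% of all probes. Of 9 tested collagen receptors none was called. Ddr2, a receptor for fibrillar collagen, was at 1.47, 1.56, 1.82 and 1.62 in the RV and 1.22, 1.35 and 1.37 in the LV, with no overlap (difference 0.31, adjusted p = 0.101), and Itga11, Ddr2 and Mrc2 were called higher and Adgrg1 lower with the slide as a block, 3 and 1 of 9 against 7.24% and 10.4% of all probes. Between RV and septum, and between septum and LV, no gene of the 3 lists was called without a block.

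Markers of other tissue moved with the regions. The 12 fibroblast markers, none of them a collagen and 1 of them (Ddr2) also in the receptor list, had a summed level between 9.25 and 9.40 in the RV, 8.75 and 8.96 in the LV and 9.01 and 9.11 in the septum. All 12 had a higher mean in the RV than in the LV, and Pdgfra, Tcf21 and Dcn were called (2.31% of all probes were called higher, which also stands beside the marker counts that follow). The 11 mesothelium markers tested summed to between 3.51 and 4.94 in the RV, 2.64 and 3.31 in the LV and 1.28 and 2.35 in the septum, with 1 called against the LV and 10 against the septum (1.2% of all probes). All 11 were above background on every RV array, but 4 were on all arrays and 4 were on Septum3. For the others a high RV value was built into the selection, and their low values lie near the background. The 7 tested of 12 markers of valve, annulus and cartilage summed to between 4.46 and 5.31 in the RV, 3.06 and 3.36 in the LV and 4.04 and 4.89 in the septum, and Comp, Ucma and Cytl1 were called against the LV, while Matn1 and Matn3 were above background on no array. Of these 7, 5 had a higher mean in the RV than in the LV, and Scx and Sox9 differed by -0.59 (adjusted p = 0.198) and -0.05 (adjusted p = 0.942). Above background on all arrays were 5 of the 7. Ucma was at -6.48, -5.44 and -4.49 on LV1 to LV3, levels near the background.

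The 12 adipocyte markers summed to between 7.68 and 7.86 in the RV, 7.64 and 7.91 in the LV and 7.62 and 7.87 in the septum, and the ranges overlapped. Their mean level, in which abundant genes weigh less, lay between 1.73 and 2.07 in the RV, -0.53 and 0.20 in the LV and 0.63 and 1.39 in the septum. Above background on all arrays were 10 of the 12, and each LV array had 10. Adipoq at -5.89 to -3.81 and Plin1 at -5.55 to -4.82 lay near the background in the LV and lowered its mean level. Of the 12, 7 had a higher mean in the RV than in the LV and 6 were called, while Plin4, Fabp4, Pnpla2, Lep and Adig had lower means in the RV and were not called. The 7 tested smooth muscle markers summed to 7.51 and 7.61 on the RV arrays of slide 1, to 8.19 and 7.83 on those of slide 2 and to between 7.45 and 7.70 in the other regions. Their mean level lay between 3.37 and 4.49 in the RV, 3.003 and 3.15 in the LV and 2.82 and 3.55 in the septum. Of these 7, 6 had a higher mean in the RV than in the LV (median difference 0.59) and none was called, and Acta2, at -0.31, was the exception. The LV, where Col8a2 was lowest, had the lowest sums of the valve, annulus and cartilage markers and also of the fibroblast markers. The mean level of the adipocyte markers was lowest there as well. Fibrillar collagens summed to 6.86 and 6.71 on the RV arrays of slide 2 against 5.38 and 5.66 on those of slide 1. Fibroblast markers summed to 9.40 and 9.38 on the RV arrays of slide 2 against 9.25 on both of slide 1. Of the other marker lists, Vwf (endothelium list), S100b and Fgl2 (Schwann cell list) and Dkk3 (atrial list) were called higher and the cardiomyocyte genes Mybpc3 and Csrp3 lower in the RV than in the LV, and no macrophage or blood marker was called. These single calls do not describe their lists. The RV mean was the higher in 5 of 10 endothelium markers (median difference -0.04) and in 6 of 7 Schwann cell markers. It was the higher in 3 of 5 atrial markers, whose differences ran from -2.21 to 3.08, and in 1 of 12 cardiomyocyte markers. It was the higher in all 8 macrophage markers (median difference 0.31) and in 0 of 5 blood markers (median difference -0.16). The macrophage markers summed to between 5.59 and 5.72 in the RV, 5.14 and 5.44 in the LV and 4.97 and 5.49 in the septum. The part of these tissues in the collagen differences was not tested.

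**Figure D5:**
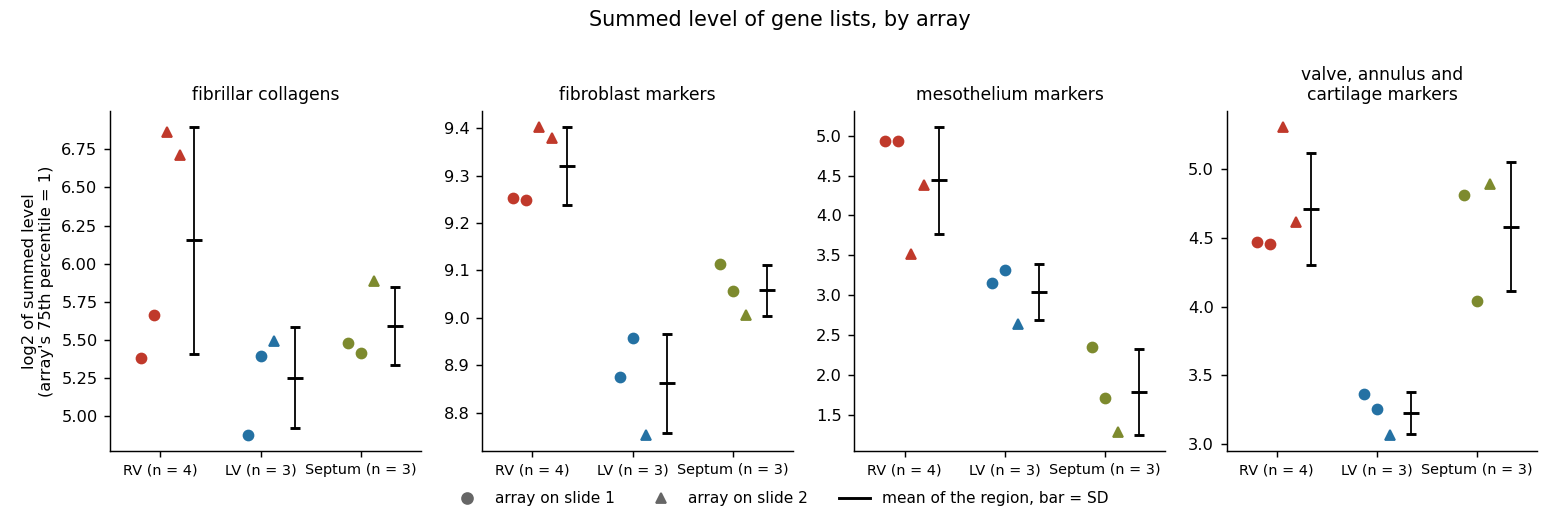
Summed level of 4 gene lists on each array (y axis, log2 of the sum of the levels of the tested genes of a list; each panel has its own scale), by region. Circles are arrays of slide 1, triangles arrays of slide 2, and the black bar is the mean with its SD. The fibrillar collagens are highest on the RV arrays of slide 2, fibroblast and mesothelium markers are highest in the RV, and the valve, annulus and cartilage markers are lowest in the LV.

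Of the 12 members that were not tested, Col6a5, Col6a6, Col10a1, Col19a1 and Col24a1 were above background on no array. Col9a3 and Col28a1 were above background on 1 array, Col6a4 on 2, Col11a1 and Col25a1 on 3, Col4a3 on 5 and Col15a1 on 6.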

How the data were processed

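Total RNA of 10 mouse heart samples was measured on single-colour Agilent arrays, 1 per sample. The deposited scanner files hold spot intensity values from Agilent Feature Extraction 11.5.1.1, background-subtracted within each array. A second deposited file, with log2 values by the authors, equalled the values computed here up to a constant per array (100% of probes within 0.05; column medians -3.13 to -2.89). Per the study's methods it was made in GeneSpring, and regions were compared by analysis of variance with Tukey's correction. No comparison columns were used, and 0 other columns of sample values were found.

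Spots of controls and spots marked as outliers (56 to 128 on an array) were removed, replicate spots were averaged by probe, and log2 processed signals were centred on the 75th percentile of each array. Of 56605 probes, 30234 (53.4%) passed the filter, well above background throughout 1 region or more, and were tested. Of all probes, 58.3% had a gene symbol, through RefSeq tables (GRCm38.p6). The array design lists another build, so gene coordinates are given only for RefSeq promoter windows. Region means were fitted with limma 3.58.1 in R 4.3.3 over all 10 arrays, with Benjamini-Hochberg adjustment over all probes tested. The number of arrays limits the precision, and the 75th percentile signal lay between 514 and 706.

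Each gene was represented by its brightest probe that passed the filter. For Col12a1 a brighter probe did not pass. The normexp alternative (offset 50) used median spot signals, where mean signals had been planned. The remaining alternatives were quantile, median and detected-probe scaling, the deposited table, slide and replicate number as blocks, each slide alone, no filter, the mean of a gene's probes, the methods' analysis of variance and leaving out each array. A term for region by slide was added after seeing the data. The scripts were tested on simulated data.

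Samples with the same replicate number deviated together from their region means (r = 0.36 to 0.64 over the same-numbered pairs), and 9 of 10 arrays correlated best with an array of their own number. The remaining array, RV4, is the only sample with its number and could not. RV1 correlated more with RV2 (r = 0.44) than with Septum1 (0.42). The numbers were therefore treated as pairing the samples. The pairing comes from the data and the sample names. Numbers are nested in slides, and RV4 has no partner, so that it drops out of the differences in the fixed replicate block. LV3 and Septum3 correlated more with RV4 (r = 0.57 and 0.58) than with RV3 (0.43 and 0.44), so that on slide 2 the number and the slide cannot be told apart.

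The members, the gene lists and the rules were chosen with earlier results of these data known. Values on every array were given for members called in any comparison, for 8 interstitial and basement membrane chains, and for members above background throughout one region and nowhere in another. Further members described at length, among them Col18a1, Col14a1 and Col8a1, were chosen after their values were seen.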

Additional observations from a re-analysis of the deposited data

Results flagged for a closer look

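Among the RV arrays, Col4a4 had a low value on RV1, at -2.36 (log2 level), against -2.01 to -1.95 on RV2 to RV4. The gap to the nearest array made up 0.861 of the range of the 4 arrays, above the critical value of Dixon's test. It was the 1 such value among the 19 collagen genes whose RV values were tested in this way, and chance gives about 1 in 20. Without RV1 the RV minus LV difference of Col4a4 was 0.91 and stayed called.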

How the results depend on the processing

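None of the 5 collagen differences called without a block turned its direction under the alternatives run. Col8a1, called lower in the RV than in the LV within slide 1 (-0.87), was at 0.26 within slide 2. Without a block, 4 members were called between RV and LV, 1 between RV and septum, 0 between septum and LV and 3 by the F test. Of the 30234 tested probes, 1167, 628, 0 and 842 were called. In the same order of comparisons, the slide as a block gave 11, 5, 0 and 10. Over all probes the pairwise counts with that block were 5331, 2643 and 14. Within slide 2 the LV and the septum had a lone array each, and no counts are given. Within slide 1, 2 were called between RV and LV, and 1, Col8a1, between RV and septum, against 821 and 478 of all probes. With the paired samples as a fixed replicate block the counts were 8, 2, 0 and 5, and as a random replicate block 10, 6, 1 and 10. Over all probes the pairwise counts were 4512, 2154 and 0 with the fixed block and 5795, 3186 and 69 with the random block. The normexp correction gave 2 and 0 for the RV against LV and septum, against 1099 and 623 of all probes. Scaling by the median gave 0 for RV against septum, against 467 of all probes. With no filter on dim probes the counts were 1, 0, 0 and 0, against 269, 112 and 0 of all probes in the pairwise comparisons. The methods' analysis of variance with Tukey's correction, adjusted, gave 1 for RV against LV and 1 over the 3 regions. Without adjustment over probes, as the methods state it, it gave 5 of the 32 members between RV and LV, 4 between RV and septum, 3 between septum and LV and 7 over the 3 regions. Of the 30234 probes that passed the filter, it gave 3998, 2754, 435 and 4904. Leaving out 1 array gave 1 to 4 between RV and LV, 0 to 2 between RV and septum, 0 to 0 between septum and LV, and 1 to 4 by the F test. Over all probes these fits called 390 to 980, 118 to 542 and 0 to 3 in the pairwise comparisons. RV against septum gave 2 without RV1, against 249 of all probes. Over all probes, RV against LV calls numbered 1167, and 269 to 5795 under the alternatives. With the slide as a block 41.1% of them were higher in the RV, against 59.7% without. The cause of these changes was not tested. Dim members such as Col8a2 and Col12a1 in the LV are limited by signal over background.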

Other observations

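A second Col9a1 probe, which did not pass the filter, was at -0.77 on RV4, at -4.07 on RV3 and between -6.58 and -3.96 on the other arrays. It was well above background on 3 of 10 arrays.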
